A study of Mus musculus with 14 samples.

Results

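The genes described here are the IL-2 and IL-7 receptor STAT5 axis of Tregs, regulatory CD4 T cells marked by Foxp3 that hold immune responses in check. The 10 genes were listed by name and matched by NCBI Gene number among the 27179 genes of the count table. They are the receptor chains Il2ra, Il2rb, Il2rg and Il7r, the kinases Jak1 and Jak3, the transcription factors Stat5a and Stat5b, and the feedback genes Cish and Socs2. All 10 were found, and all 10 passed the filter on low counts in every comparison.

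IL-2 binds a receptor of 3 chains: the alpha chain (Il2ra, CD25) raises affinity, and the beta chain (Il2rb) and the common gamma chain (Il2rg) signal. IL-7 uses its own alpha chain (Il7r, CD127) together with the same gamma chain. JAK1 sits on the beta and IL-7 receptor alpha chains and JAK3 on the gamma chain, and together they phosphorylate STAT5, which enters the nucleus and drives its target genes. Tregs depend on IL-2 made by other cells and are commonly recognised by abundant CD25 and scarce CD127. STAT5 also induces CIS (Cish) and SOCS2 (Socs2), proteins that dampen cytokine receptor signalling.

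The series sequenced polyadenylated RNA of Tregs sorted by a yellow fluorescent protein made with Foxp3, from spleen and from MC38 tumors of mice. MC38 is a mouse colon carcinoma line, and all mice carried it as a flank tumor taken at endpoint. All mice also carried FoxP3Cre-YFP, a Cre recombinase expressed in Foxp3-positive cells, on the B6 background. Mice with IL23R WT/WT gave 4 spleen and 4 tumor libraries, and mice with IL23R Flox/Flox, in which that Cre is designed to delete Il23r in Tregs, gave 3 and 3. The labels give no age, and whether replicates were separate mice is not said, so a p-value covers the spread among these libraries alone. The submitters compare genotypes inside each tissue, and the design also holds tumor against spleen.

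The libraries held 4859099 to 10333892 counts, and the fewest counts of any of the 10 genes in any library were 148. Il23r itself was near 0 everywhere, with 17 counts in the Flox-labelled and 2 in the WT-labelled tumor libraries, and with 10 and 2 in spleen. That direction is opposite to what the labels imply, but counts this few cannot show whether the labels hold. Directions below follow the labels, as Flox-labelled and WT-labelled. Xist, transcribed in female cells, lay between 56.7 and 529 CPM (counts normalised to library size with TMM, a scaling factor per library) in WT-labelled libraries and at 3.34 CPM or less in Flox-labelled ones. The Y-linked Ddx3y lay between 281 and 657 CPM in Flox-labelled libraries and at 127 CPM or less in WT-labelled ones, so genotype label and sex-linked expression cannot be told apart. The Treg label fitted the markers: Foxp3 lay between 98.3 and 268 CPM, Cd4 between 162 and 1070 CPM and Cd3e between 192 and 390 CPM over the 14 libraries.

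RNA of other cells was present in amounts that differed between tissues. The summed level of 7 B cell markers was 305 to 1710 CPM in WT-labelled spleen, 234 to 339 CPM in Flox-labelled spleen, 2.34 to 99.6 CPM in WT-labelled tumor and 1.53 to 2.51 CPM in Flox-labelled tumor. Beside them, 6 Treg markers summed to 1760 to 3430 CPM in WT-labelled and 2280 to 2730 CPM in Flox-labelled spleen. In WT-labelled spleen replicate 2 the sums were close, at 1710 CPM for B cell and 1760 CPM for Treg markers. Pax5 and Cd22 were at 0 in all Flox-labelled tumor libraries and Pax5 in all WT-labelled ones. The 7 macrophage and monocyte markers summed to 15.1 to 244, 6.72 to 16.3, 8.84 to 159 and 32.9 to 71.5 CPM in the same order of groups. CD8 T and NK markers summed to 37.5 CPM or less and dendritic markers to 27.2 CPM or less in every library, and 6 carcinoma and stromal markers to between 37.1 and 273 CPM. Krt8 was at 0 in 3 of the 4 groups, and Flox-labelled tumor was the exception.

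Sequence bears on how far these genes can be told apart. Stat5a and Stat5b lie next to each other on chromosome 11, with 346 bases between their annotated spans, and are close paralogs. Of 2291 coding bases aligned without a gap, 2080 (90.8%) were identical, in GENCODE M21 transcripts on GRCm38. Stretches of 50 bases of the Stat5a transcript had an exact copy in Stat5b in 17.1% of positions, and stretches of 150 bases in 5.06%. A read falling wholly in such a stretch belongs to either gene, and no source used here states how the authors assigned such reads. The first of the most alike stretches of 60 coding bases starts at coding base 178 of both genes and holds no difference. It lies at chr11:100861770-100861829 (+ strand) in Stat5a and at chr11:100804918-100804977 (- strand) in Stat5b. It is shown because a read lying wholly inside it cannot be placed:
Stat5a and Stat5b most alike: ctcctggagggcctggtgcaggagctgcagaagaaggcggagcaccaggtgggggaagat
The least alike gap-free 60 coding bases begin at coding base 85 and differ at 19 positions, in capitals. They are shown because a read there names its gene, and each is spliced from exons within chr11:100861422-100861736 (+ strand) and chr11:100805011-100808439 (- strand):
Stat5a least alike: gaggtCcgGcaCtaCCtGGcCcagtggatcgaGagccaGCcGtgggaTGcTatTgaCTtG
Stat5b least alike: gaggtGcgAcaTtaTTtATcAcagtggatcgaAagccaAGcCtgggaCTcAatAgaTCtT

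STAT5 dimers bind the palindrome TTCNNNGAA, which reads the same on both strands. It was searched in RefSeq promoter windows of GRCm38.p6, from 250 bases before to 50 after the start each window was set on. Of 32851 windows, 8.3% held at least 1 match and 0.457% held 2 or more. Windows were given for 8 of the 10 genes, all but Il2rb and Socs2, and Stat5a and Stat5b had 2 each. Those of Stat5a, Il7r and Jak1 were set on starts inside the annotated span of the gene. Both windows of Stat5b (chr11:100850532-100850831 and chr11:100822521-100822820) lay wholly inside its span. The sequence around the outer start of Stat5b, at 100859004 on the - strand, was thus not searched. Cish held 2 matches, TTCCTGGAA and TTCTTGGAA, separated by a pair of bases and placed at the annotated start. Il7r held 1, TTCAGGGAA, and the windows of Il2ra, Il2rg, Jak1, Jak3, Stat5a and Stat5b held none. A match is a string of letters and was not tested as a binding site. The 2 stretches with a match are shown with the matches in capitals, for Cish chr9:107296539-107296688 (+ strand) and for Il7r chr15:9529917-9530066 (- strand):
Cish promoter: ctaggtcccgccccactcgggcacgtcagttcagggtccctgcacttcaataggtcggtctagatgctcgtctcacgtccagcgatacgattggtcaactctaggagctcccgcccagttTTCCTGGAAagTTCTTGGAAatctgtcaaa
Il7r promoter: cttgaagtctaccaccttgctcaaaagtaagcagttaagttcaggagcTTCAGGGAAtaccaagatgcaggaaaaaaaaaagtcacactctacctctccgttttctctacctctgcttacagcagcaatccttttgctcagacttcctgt

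All 10 genes were expressed in both tissues, and their order differed. Per kilobase of merged exons, Jak1 was the most abundant in spleen at 300 ± 31.3 CPM per kilobase (SD, n = 7), from 256 to 340, above every library of the next gene. Il2rg (108 ± 25.4), Il2ra (98.5 ± 16.8), Il7r (59.3 ± 15.3) and Stat5b (40.3 ± 15.8 CPM per kilobase) followed. Socs2, Il2rb, Stat5a, Cish and Jak3 came last, from 20.4 down to 8.79 CPM per kilobase. Every other pair of neighbours in this order had overlapping ranges.

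In tumor Il2ra came first at 289 ± 101 CPM per kilobase (SD, n = 7), with Jak1 next at 252 ± 51.1, and their ranges of 181 to 477 and 172 to 332 overlapped. Il2rg (142 ± 88.8) and Il7r (93.4 ± 63.0) came next on the same scale, and Stat5b (21.5 ± 19.7) and Stat5a (11.2 ± 7.38) were last. Jak3, last in spleen, stood eighth in tumor at 35.7 ± 20.5 CPM per kilobase. No neighbours in the tumor order were free of overlap.

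**Figure D1:**
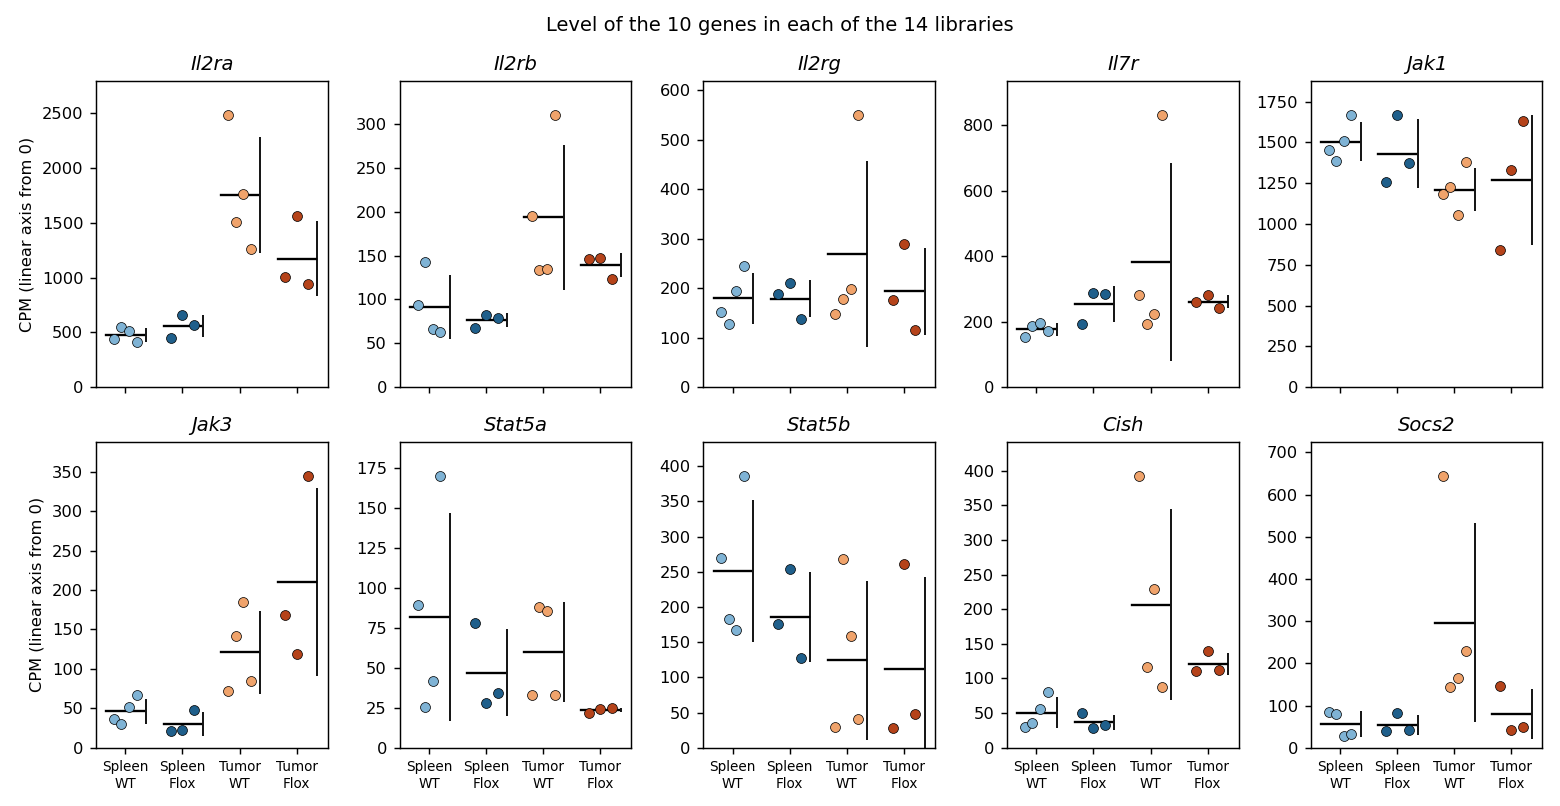
CPM (vertical axes, linear from 0) of each of the 10 genes in the 14 libraries, by tissue and label; points are libraries, horizontal lines group means and vertical lines 1 SD, cut at 0. Il2ra, Jak3 and Cish are higher in all 7 tumor libraries than in all 7 spleen libraries, and 1 WT-labelled tumor library stands alone in Il7r (831 CPM) and Il2rg (550 CPM).

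Tumor Tregs carried more RNA of the alpha and beta chains of the IL-2 receptor, of the gamma chain's kinase and of both feedback genes than spleen Tregs. In edgeR's quasi-likelihood test over all 14 libraries, averaged over both labels, 5 of the 10 genes were higher in tumor at an adjusted p under 0.05: Il2ra, Il2rb, Jak3, Cish and Socs2. None of the 10 was called lower. Over 24 alternative fits the calls held in 23 for Il2ra, in 22 each for Jak3 and Cish, and in 9 each for Il2rb and Socs2. Over all 12008 genes tested 24.1% were called, 13% higher and 11.2% lower. The median log2 fold change of the 10 genes was 0.77, against 0.02 over all genes tested. In bulk RNA, a change in the share of cells that express a gene and a change in RNA per cell cannot be told apart.

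Il2ra stood at 437, 548, 516 and 410 CPM in WT-labelled spleen replicates 1 to 4 and at 452, 658 and 569 CPM in Flox-labelled spleen replicates 1 to 3. In tumor it stood at 2484, 1512, 1762 and 1260 CPM in the WT-labelled and at 1004, 1566 and 945 CPM in the Flox-labelled libraries. Every tumor library lay above every spleen library, and the highest was WT-labelled tumor replicate 1. Tumor exceeded spleen by 1.47 ± 0.21 on the log2 scale (SE), or 2.77-fold, with an adjusted p of 0.000498. It was 1.88 ± 0.30 in the 8 WT-labelled libraries alone (adjusted p = 0.011, edgeR) and 1.08 ± 0.30 in the 6 Flox-labelled ones (adjusted p = 0.0771).

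Il2rb, the signalling chain that IL-2 shares with IL-15, stood at 94.0, 142, 66.2 and 62.4 CPM in WT-labelled and at 67.6, 82.6 and 78.9 CPM in Flox-labelled spleen. Its tumor values were 195, 134, 135 and 310 CPM with the WT label and 146, 148 and 123 CPM with the Flox label. Tumor libraries were mostly higher, but WT-labelled spleen replicate 2 (142 CPM), which also had the highest summed B cell markers (1710 CPM), lay among them. The part of those other cells in its value was not tested. The log2 fold change was 0.97 ± 0.31 with an adjusted p of 0.0386. The call was lost (adjusted p from 0.0559 to 0.0879, edgeR) when any 1 of 10 libraries was left out: WT-labelled spleen replicates 1, 3 and 4, WT-labelled tumor replicate 4 and every Flox-labelled library.

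Il2rg and Il7r were not called. Il2rg ranged from 128 to 245 CPM in spleen and from 115 to 550 CPM in tumor, with a log2 fold change of 0.35 ± 0.36 (adjusted p = 0.524, edgeR). Il7r stood at 152, 187, 196 and 172 CPM in WT-labelled and at 192, 288 and 284 CPM in Flox-labelled spleen. In tumor it stood at 283, 193, 223 and 831 CPM with the WT label and at 261, 282 and 241 CPM with the Flox label. The tissues overlapped widely in both genes, and the highest value of each belonged to WT-labelled tumor replicate 4. For Il7r the log2 fold change was 0.58 ± 0.34 (adjusted p = 0.234), and the limits at 2 SE ran from -0.10 to 1.26.

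The receptors' kinases parted. Jak3 stood at 36.5, 29.6, 51.1 and 66.5 CPM in WT-labelled and at 20.6, 22.9 and 47.4 CPM in Flox-labelled spleen. It reached 71.7, 142, 185 and 85.1 CPM in WT-labelled and 169, 118 and 345 CPM in Flox-labelled tumor. All tumor libraries lay above all spleen libraries, with the lowest tumor and the highest spleen value close together. On the log2 scale the difference was 2.10 ± 0.40, or 4.28-fold (adjusted p = 0.00289, edgeR). Jak1 ranged from 1260 to 1670 CPM in spleen and from 842 to 1630 CPM in tumor, with a log2 fold change of -0.24 ± 0.17 (adjusted p = 0.32). Scaled to unadjusted library totals, a setting chosen after seeing the data, Jak1 was called lower in tumor (-0.59 ± 0.15, adjusted p = 0.0139). The annotated span of Jak3 overlaps Insl3, that of Jak1 overlaps Raver2 and predicted genes, and those of Il2ra and Socs2 each overlap a predicted gene. No source used here states whether counting used strand, so reads of such neighbours cannot be told apart.

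Neither STAT5 gene was called, and both varied widely between libraries of a group. Stat5a stood at 88.9, 25.4, 41.7 and 170 CPM in WT-labelled spleen, at 78.0, 28.2 and 34.3 CPM in Flox-labelled spleen, at 33.2, 88.0, 85.3 and 32.6 CPM in WT-labelled tumor and at 21.9, 24.0 and 24.7 CPM in Flox-labelled tumor. Stat5b stood at 270, 183, 167 and 387 CPM in WT-labelled spleen, at 175, 254 and 127 CPM in Flox-labelled spleen, at 28.9, 268, 158 and 40.8 CPM in WT-labelled tumor and at 28.1, 262 and 47.4 CPM in Flox-labelled tumor. Within tumor Stat5b lay either between 28.1 and 47.4 CPM or between 158 and 268 CPM, under both labels. Log2 fold changes were -0.72 ± 0.48 for Stat5a (adjusted p = 0.297, edgeR) and -0.87 ± 0.60 for Stat5b (adjusted p = 0.312).

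Both feedback genes were higher in tumor. Cish stood at 30.1, 36.3, 55.4 and 81.0 CPM in WT-labelled and at 49.4, 29.1 and 32.4 CPM in Flox-labelled spleen. Its tumor values were 393, 116, 229 and 87.9 CPM with the WT label and 111, 139 and 112 CPM with the Flox label. The tissues did not overlap, and WT-labelled tumor replicate 1 was the highest, as for Il2ra. The log2 fold change was 1.87 ± 0.41, or 3.64-fold (adjusted p = 0.00589, edgeR).

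Socs2 stood at 85.6, 79.5, 26.7 and 32.3 CPM in WT-labelled and at 38.9, 81.8 and 41.0 CPM in Flox-labelled spleen. In tumor it stood at 645, 143, 165 and 230 CPM with the WT label and at 147, 42.2 and 49.4 CPM with the Flox label. The WT-labelled tumor libraries lay above all spleen libraries, while 2 of the 3 Flox-labelled ones lay within the spleen range. Its log2 fold change was 1.48 ± 0.49 (adjusted p = 0.045, edgeR). The call was lost (adjusted p from 0.0501 to 0.132) when any 1 of 9 libraries was left out: WT-labelled spleen replicates 3 and 4, the 3 Flox-labelled spleen libraries, WT-labelled tumor replicates 1 and 4, and Flox-labelled tumor replicates 1 and 3.

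Il2ra, Jak3 and Cish, 3 of the 10 genes, were higher in every tumor than in every spleen library, against 5.91% of all genes tested, and 0 were lower in every one, against 3.46%. These 3 kept their call when any of the 14 libraries was left out, with adjusted p of at most 0.0218, and with DESeq2. With the 8 WT-labelled libraries alone Il2ra was the only one of the 10 called, and with the 6 Flox-labelled ones none was (Jak3 adjusted p = 0.0509, Cish 0.0843, edgeR). Scaling to unadjusted library totals moved the median of all genes from 0.02 to -0.32 and the calls from 1558 higher and 1339 lower to 1141 higher and 2011 lower. On that scale Il2ra (1.12 ± 0.21, adjusted p = 0.00227), Jak3 (1.77 ± 0.41, 0.0082) and Cish (1.51 ± 0.39, 0.0134) were still called, and Il2rb (0.61, adjusted p = 0.173) and Socs2 (1.12, adjusted p = 0.102) were not. TMM factors lay between 1.03 and 1.26 in spleen and between 0.744 and 0.981 in tumor.

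**Figure D2:**
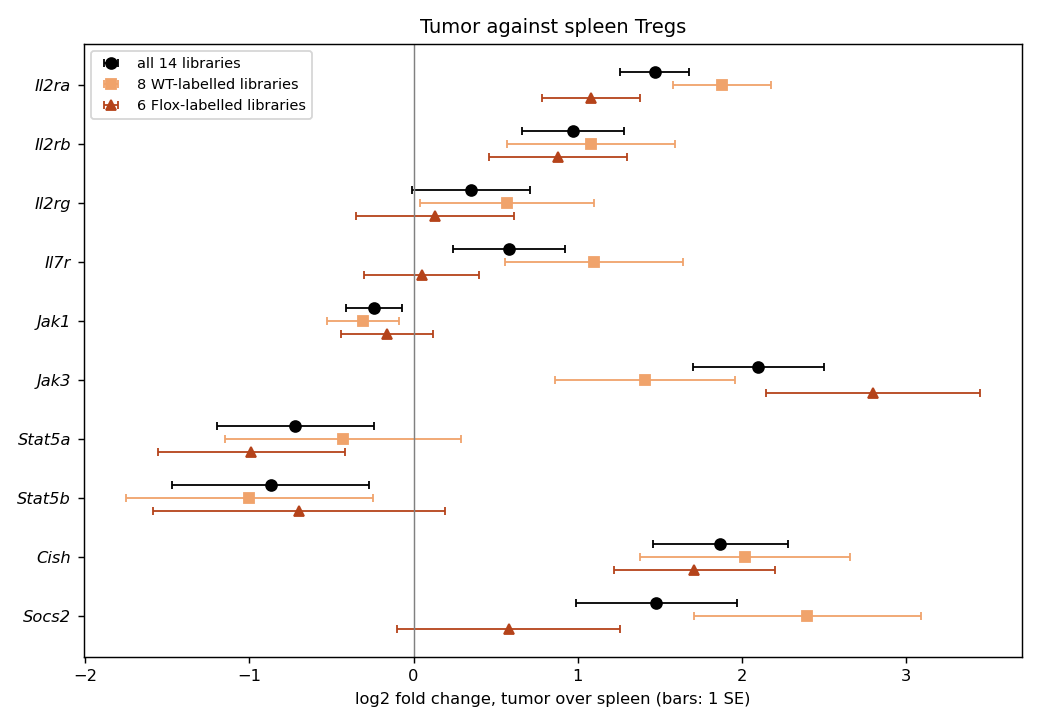
Log2 fold change of tumor over spleen (horizontal axis) for the 10 genes, from all 14 libraries, from the 8 WT-labelled and from the 6 Flox-labelled ones; bars are 1 SE. Il2ra, Jak3 and Cish lie to the right of 0 in all 3 fits, Socs2 reads 2.40 with the WT label and 0.58 with the Flox label, and Stat5a and Stat5b lie to the left of 0.

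Several traits of the libraries moved with tissue beside these genes. All 6 tested B cell markers were lower in tumor. The 5 dendritic markers summed to 0.493 to 2.34 CPM in spleen and 5.43 to 27.2 CPM in tumor, without overlap, and of the 2 tested Zbtb46 was called higher. Of 4 tested carcinoma and stromal markers the collagen genes Col3a1 and Col1a1 were called higher and Epcam lower, and the list summed to 58.6 to 172 CPM in spleen and 37.1 to 273 CPM in tumor. Of 7 macrophage and monocyte markers C1qa and C1qb were called higher, at no more than 4.09 and 3.32 CPM in any library. The other 5 were not called: Cd68 (1.81), Adgre1 (0.54) and Itgam (0.03) read positive, and Csf1r (-0.95) and Lyz2 (-0.55) negative. Of 5 tested CD8 T and NK markers 0 were called higher and 1 lower. Of the 6 Treg markers 3 were called higher, with a summed level of 1760 to 3430 CPM in spleen and 3900 to 6830 CPM in tumor. Of 14 genes that respond to cell handling, such as heat shock and immediate-early genes, 4 were called higher and 0 lower, and their summed level was 1010 to 1850 CPM in spleen and 1470 to 3380 CPM in tumor. Their part in the differences of the 10 genes, and of the pathway genes below, was not tested.

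The other genes of the pathway are given by list, and each count stands against the 24.1% of all genes called between tissues, 13% higher and 11.2% lower. Of the 5 genes listed as other gamma chain receptors, 1 was called higher in tumor and 1 lower. The higher one, Crlf2, is the TSLP receptor chain, which pairs with Il7r and not with the gamma chain. Crlf2 was higher (log2 fold change 2.00 ± 0.30, adjusted p = 0.000625, edgeR) at 17.4 to 31.8 CPM against 4.32 to 9.36. None of Il4ra, Il9r, Il15ra and Il21r was called higher in this fit. Il9r was lower (-3.20 ± 0.66, adjusted p = 0.00423), at 0.586 CPM or less in every tumor library, and read -2.46 without WT-labelled spleen replicate 4. Il4ra, at 1.04 ± 0.36, did not pass (adjusted p = 0.0522).

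Among the ligands 2 of 7 had counts enough for a test. Il15, which signals through Il2rb and Il2rg, was called higher in tumor, from at most 0.468 CPM in spleen to between 0.141 and 10.9 CPM (adjusted p = 0.0114, edgeR). Il2 was not called, at 0.102 to 1.56 CPM in spleen and 0 to 6.45 CPM in tumor. The fold of Il15 is not given, since it was at 0 in every Flox-labelled spleen library.

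Of the 7 other JAK and STAT genes 4 were called higher in tumor and 0 lower, and all 7 estimates were positive. Stat3, the main STAT of IL-6 and IL-23 signalling, went from 145 to 356 CPM in spleen to 438 to 1060 CPM in tumor (log2 fold change 1.56 ± 0.27, adjusted p = 0.00151, edgeR). Jak2 rose by 1.85 ± 0.33 (adjusted p = 0.00204), with overlapping ranges of 43.5 to 321 CPM in spleen and 241 to 975 CPM in tumor. In the Flox-labelled libraries alone Jak2 read 0.68 (adjusted p = 0.418, edgeR). Stat2, a STAT of type I interferon signalling named after its values were seen, was also called. The Stat3 ranges of the tissues did not overlap, while those of Stat5a and Stat5b did.

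Of 20 other feedback genes 1 was called higher and 3 lower, a smaller share than the 24.1% of all genes, so the list is given for its named genes only. Sh2b3 (LNK), an adaptor that restrains JAK signalling in blood cells, fell from 15.4 to 272 CPM in spleen to 1.04 to 5.03 CPM in tumor (log2 fold change -4.92 ± 0.70, adjusted p = 0.000481, edgeR). Ptpn6, the phosphatase SHP-1, was lower by -1.75 ± 0.44 (adjusted p = 0.0119), and Spred1, an inhibitor of the Ras pathway, was higher by 3.80 ± 0.86 (adjusted p = 0.00699). Spred1 read 1.83 without Flox-labelled tumor replicate 2. Sh2b3 read -4.22 without WT-labelled spleen replicate 2, the library with the highest summed B cell markers (1710 CPM). The part of B cell RNA in the Sh2b3 difference was not tested. The other lower gene, named after its values were seen, was the ubiquitin ligase Cbl. Of the SOCS genes of this list none was called, so Cish and Socs2 were the members of that family that passed.

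Of 18 tested signalling adaptors 0 were called higher and 3 lower, again a smaller share than the 24.1% of all genes. They were Pik3cd, the lymphocyte PI3 kinase subunit (-1.84 ± 0.42, adjusted p = 0.00702, edgeR), the docking protein gene Gab3 (-3.99 ± 0.94, adjusted p = 0.00863) and Rptor of the mTOR complex (-2.01 ± 0.67, adjusted p = 0.0459). Gab3 lost its call under voom (adjusted p = 0.0689) and read -2.99 without WT-labelled spleen replicate 4. Rptor lost its call when any 1 of 10 libraries was left out, with adjusted p between 0.054 and 0.096, and read -1.22 without WT-labelled spleen replicate 4. The libraries whose absence left it called were WT-labelled spleen replicates 1, 2 and 3 and WT-labelled tumor replicate 1.

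Of 35 genes described as responding to STAT5 or IL-2 in T cells, 19 were called higher in tumor and 5 lower, with a median log2 fold change of 1.22. Bcl2l1, which encodes the survival protein BCL-XL, went from 820 to 1540 CPM in spleen to 4680 to 6720 CPM in tumor (2.28 ± 0.12, adjusted p = 1.19e-06, edgeR). The granzyme gene Gzmb (6.87 ± 0.51, adjusted p = 8.75e-06) and the costimulatory receptor gene Icos (3.73 ± 0.29, adjusted p = 9.89e-06) did not overlap between tissues either. The 5 lower genes, named after their values were seen, were Eomes, Myc, Bcl2, Lta and Bcl6. Many genes of this list also answer to antigen and other cytokines, and Foxp3, Ctla4 and Tnfrsf18 stand among the Treg markers too. Foxp3 itself was not called (-0.12 ± 0.31, adjusted p = 0.817).

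Of 16 genes of the resting T cell state, which include regulators of Il7r such as Foxo1, 0 were called higher and 7 lower in tumor. Bach2 went from 49.8 to 129 CPM in spleen to 0.614 to 2.61 CPM in tumor (-6.11 ± 0.51, adjusted p = 1.57e-05, edgeR). Tcf7, which encodes TCF1, went from 854 to 1170 CPM to 1.28 to 18.9 CPM (-7.03 ± 0.65, adjusted p = 2.93e-05, and -7.81 without Flox-labelled tumor replicate 3), and Tnfrsf25 was lower by -2.76 ± 0.34 (adjusted p = 0.000168). Il7r was not called, and its estimate of 0.58 was positive. It read 1.10 ± 0.54 in the WT-labelled libraries alone, which hold tumor replicate 4 at 831 CPM, and 0.05 ± 0.35 in the Flox-labelled ones.

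**Figure D3:**
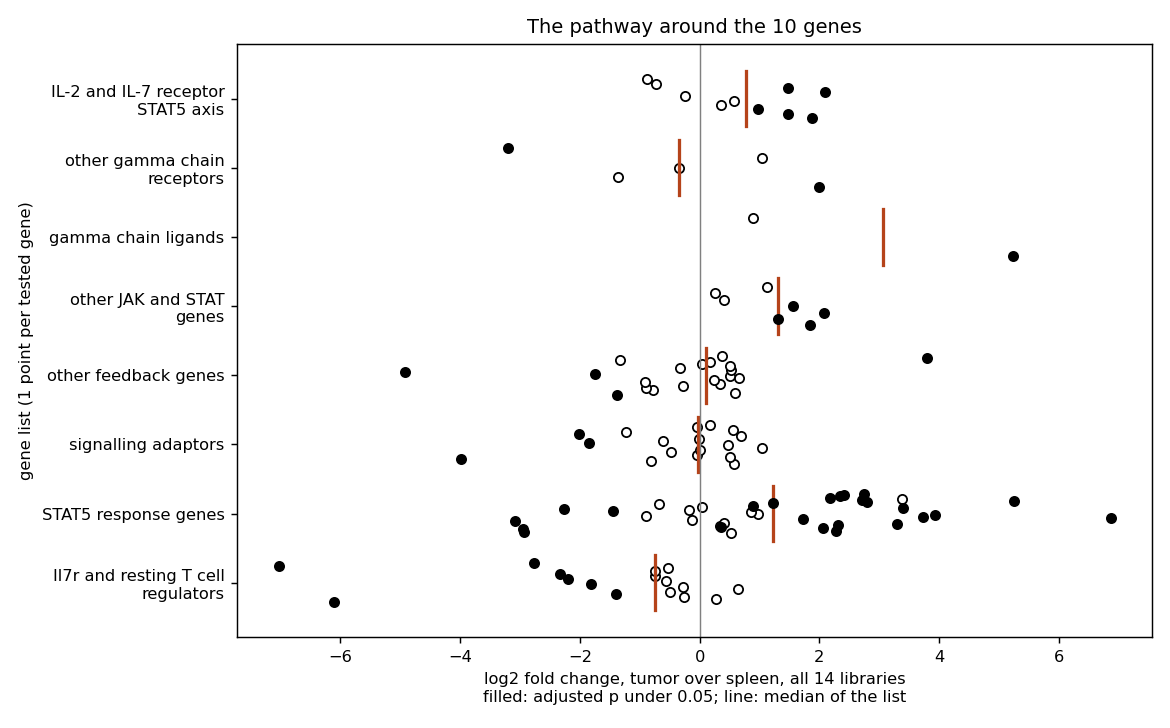
Log2 fold change of tumor over spleen (horizontal axis) for the 10 genes and for the tested genes of 7 pathway lists (rows), 1 point a gene; filled points have an adjusted p under 0.05 and the vertical lines are list medians. The STAT5 response genes have a median of 1.22 and the resting T cell regulators one of -0.75.

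No difference between Flox-labelled and WT-labelled libraries passed the test in any of the 10 genes, in either tissue. In tumor 0 of 10777 genes tested were called (0%) and 871 had an unadjusted p under 0.05, and DESeq2 called 256 and limma voom 1. In spleen 0 of 10935 were called (0%) and 750 had an unadjusted p under 0.05, and DESeq2 called 124 and limma voom 0. None of the 10 genes was called by any of the 16 alternatives in either tissue. A missed threshold does not show that levels are alike, and SEs of the 10 genes were between 0.32 and 1.10 log2 units in tumor and between 0.16 and 0.74 in spleen.

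In tumor, 8 of the 10 estimates were negative, with a median log2 fold change of -0.51 against -0.06 over all genes tested. Il2ra was 1170 ± 343 CPM (SD, n = 3) with the Flox label and 1750 ± 528 CPM (SD, n = 4) with the WT label. Flox-labelled replicate 2 (1566 CPM) lay inside the WT-labelled range. The log2 fold change was -0.59 ± 0.36 (adjusted p = 0.631, edgeR), with limits at 2 SE of -1.31 and 0.13. Il2rb (-0.47 ± 0.53), Il2rg (-0.46 ± 0.66) and Il7r (-0.54 ± 0.62) also overlapped. The estimates of Il2rg and Il7r turned to 0.14 and 0.16 without WT-labelled tumor replicate 4.

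Jak1 read 0.06 ± 0.32 and Jak3 0.76 ± 0.63 in tumor, both with overlapping groups, and Jak1 turned to -0.13 without Flox-labelled replicate 3. Stat5a was the only one of the 10 whose groups did not overlap, at 23.5 ± 1.42 CPM in the 3 Flox-labelled and 59.8 ± 31.0 CPM in the 4 WT-labelled libraries. Among all genes tested in tumor 2.52% were lower in every Flox-labelled library and 2.47% higher. WT-labelled tumor replicates 1 and 4, at 33.2 and 32.6 CPM, stood close to the Flox-labelled values, and the log2 fold change of -1.38 ± 0.64 did not pass (adjusted p = 0.584, edgeR). Stat5b read -0.16 ± 1.10 and turned to 0.53 without WT-labelled tumor replicate 2.

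Socs2 had the smallest p of the 10 genes in tumor. It was 79.5 ± 58.6 CPM (SD, n = 3) with the Flox label and 296 ± 236 CPM (SD, n = 4) with the WT label, and Flox-labelled replicate 1 (147 CPM) lay just above the lowest WT-labelled library (143 CPM). The log2 fold change was -1.89 ± 0.81 (unadjusted p = 0.0491, adjusted p = 0.584, edgeR), and 8.08% of all genes tested in tumor had an unadjusted p under 0.05. Cish, at 121 ± 15.8 and 206 ± 138 CPM, read -0.78 ± 0.66 (adjusted p = 0.739), with all 3 Flox-labelled libraries inside the WT-labelled range. Beside these values, the handling genes summed to 1470 to 1950 CPM in Flox-labelled and 1640 to 3380 CPM in WT-labelled tumor libraries, and the Treg markers to 3900 to 5420 and 4230 to 6830 CPM. The macrophage and monocyte markers summed to 32.9 to 71.5 and 8.84 to 159 CPM. Of these 7 markers 4 read higher with the Flox label and 0 were called. Cd68 (2.87 ± 0.54, unadjusted p = 0.000852), Itgam (1.76 ± 0.72, 0.0405) and Csf1r (2.68 ± 1.12, 0.0463) each had an adjusted p of 0.584 (edgeR). Lyz2 read 0.82 ± 0.53. Adgre1 (-3.95 ± 2.18), C1qb (-0.50 ± 0.67) and C1qa (-0.18 ± 0.51) read lower with the Flox label. The part of these genes was not tested.

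In spleen 8 of the 10 estimates were negative, as many as in tumor. They lay between -0.79 and 0.53, with a median of -0.16 against -0.06 over all genes tested, and the groups of all 10 genes overlapped. Among all genes tested in spleen 2.75% were higher and 3.14% lower in every Flox-labelled library. Il7r had the smallest p, at 255 ± 54.6 CPM (SD, n = 3) with the Flox label and 177 ± 19.1 CPM (SD, n = 4) with the WT label. Flox-labelled replicate 1 (192 CPM) fell inside the WT-labelled range and the other two (288 and 284 CPM) above it. The log2 fold change was 0.53 ± 0.28 (adjusted p = 0.692, edgeR), with limits at 2 SE of -0.03 and 1.09. Il2ra read 0.23 ± 0.22 at 560 ± 104 CPM (SD, n = 3) against 478 ± 64.9 CPM (SD, n = 4).

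The remaining spleen estimates were -0.25 ± 0.41 for Il2rb, -0.01 ± 0.34 for Il2rg, -0.07 ± 0.16 for Jak1 and -0.60 ± 0.52 for Jak3. They were -0.79 ± 0.74 for Stat5a, -0.44 ± 0.41 for Stat5b, -0.46 ± 0.51 for Cish and -0.05 ± 0.57 for Socs2. Those of Il2rb, Il2rg, Jak1 and Socs2 changed sign when a library was left out, to 0.02, 0.18, 0.01 and 0.18. They did so without WT-labelled replicate 2, WT-labelled replicate 4, Flox-labelled replicate 1 and WT-labelled replicate 1 in that order. In the WT-labelled and Flox-labelled spleen libraries B cell markers summed to 305 to 1710 and 234 to 339 CPM, and macrophage markers to 15.1 to 244 and 6.72 to 16.3 CPM. Their part in these values was not tested.

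**Figure D4:**
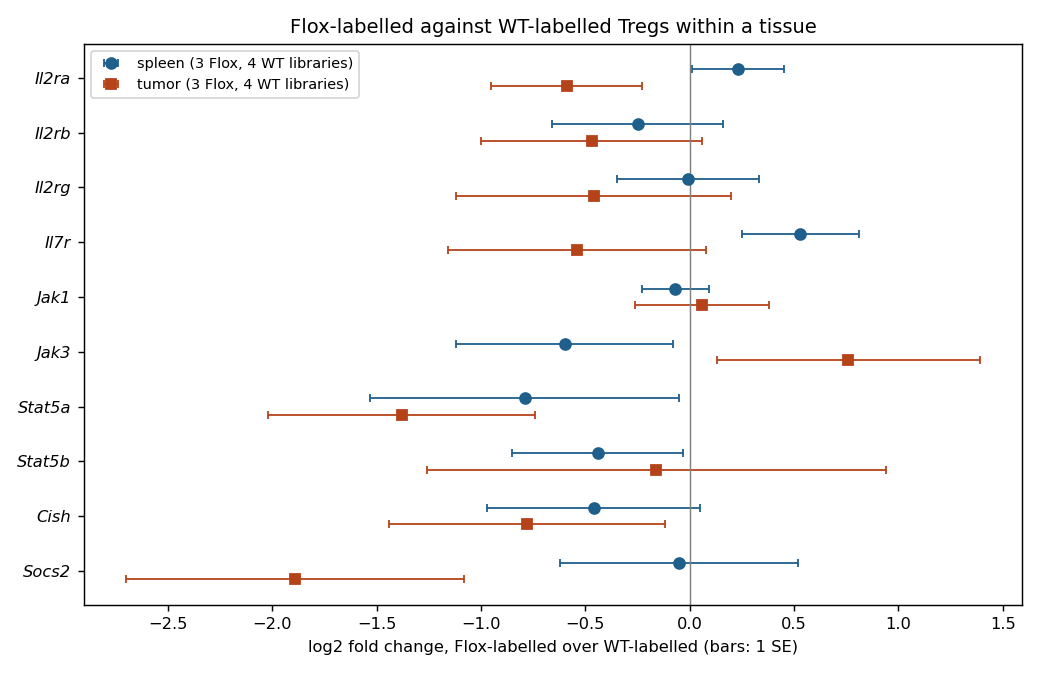
Log2 fold change of Flox-labelled over WT-labelled libraries (horizontal axis) for the 10 genes in spleen and in tumor, 3 against 4 libraries each; bars are 1 SE. In each tissue 8 of 10 estimates lie to the left of 0. Socs2 (-1.89) and Stat5a (-1.38) lie farthest left in tumor, and Il7r (0.53) lies farthest to the right in spleen.

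Whether the Flox-labelled against WT-labelled difference itself differed between tissues was tested across all 14 libraries. Of 12008 genes 0 were called (0%), 1296 had an unadjusted p under 0.05, and DESeq2 called 134 and limma voom 0. The smallest p of the 10 genes belonged to Il2ra (-0.81 ± 0.41, tumor minus spleen, adjusted p = 0.497, edgeR), Socs2 (-1.84 ± 0.98, adjusted p = 0.511) and Jak3 (1.40 ± 0.77, adjusted p = 0.528). For Il2ra the limits at 2 SE, -1.63 and 0.01, held 0, and the unadjusted p was 0.0707 (edgeR). These 3 estimates kept their sign in all 21 alternatives, and none was called in any of them.

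Of the 7 pathway lists, 0 genes were called in either tissue between labels. In tumor the list members with the smallest p were Socs5 (4.63 ± 1.53), Jak2 (-1.26 ± 0.41), S1pr1 (-3.38 ± 1.12), Shc1 (-2.97 ± 1.09), Osm (1.36 ± 0.51), Il15 (2.89 ± 1.13) and Il15ra (0.97 ± 0.71), with adjusted p of 0.584 for the first 6 and 0.694 for Il15ra. In spleen they included Bcl2l1 (0.57 ± 0.16), Tyk2 (1.02 ± 0.34), Socs5 (2.47 ± 1.01), Il9r (-2.10 ± 0.99) and Foxo1 (0.47 ± 0.35), with adjusted p of 0.674 for the first 4 and 0.774 for Foxo1. No gamma chain ligand had counts enough for a test in spleen. The STAT5 response genes had a median of -0.04 in tumor and -0.11 in spleen, against -0.06 over all genes tested in each.

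Ratios between genes of the same library do not depend on how libraries are scaled. Per length, Il2ra over Il7r lay between 1.36 and 2.00 in the 7 spleen libraries, and CD25 RNA thus exceeded CD127 RNA in each. In WT-labelled tumor it was 5.97, 5.33, 5.37 and 1.03, and in Flox-labelled tumor 2.62, 3.77 and 2.66. The low value of 1.03 was WT-labelled replicate 4, and the other 6 tumor libraries lay above all spleen libraries. Jak3 over Jak1 lay between 0.0151 and 0.0438 in spleen and between 0.0665 and 0.232 in tumor, without overlap.

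Stat5b over Stat5a, per length, lay between 1.61 and 6.45 in spleen and between 0.624 and 7.81 in tumor. Replicate 2 was the highest of every group, at 5.14 and 2.18 in WT-labelled spleen and tumor and at 6.45 and 7.81 in Flox-labelled ones. Il2rb over Il2rg lay between 0.099 and 0.434 in spleen and between 0.199 and 0.510 in tumor. Cish over Il2ra lay between 0.0631 and 0.282 in spleen and between 0.0996 and 0.226 in tumor, and both of these overlapped widely.

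**Figure D5:**
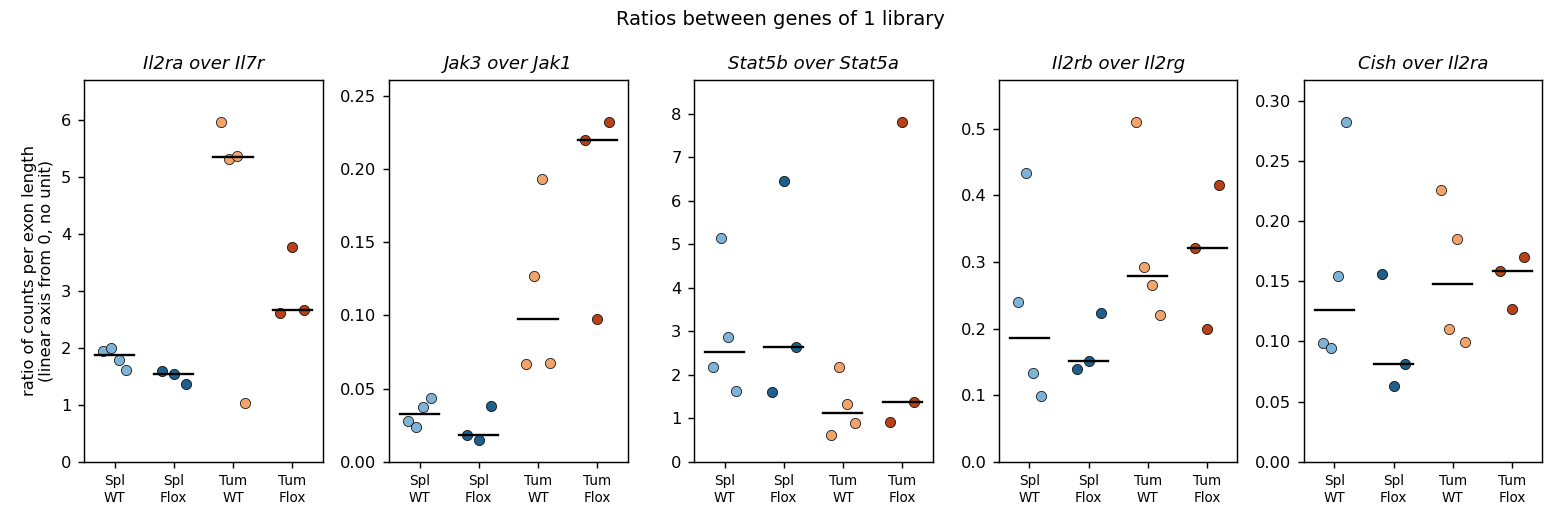
Ratio of counts per exon length between genes of the same library (vertical axes, linear from 0, no unit), by tissue and label; points are libraries and lines group medians. Jak3 over Jak1 separates all 7 tumor from all 7 spleen libraries, and Il2ra over Il7r separates all but the WT-labelled tumor library at 1.03.

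Among 4923 genes of mean CPM of at least 20, those whose log2(CPM + 1) was most like that of Il2ra over the 14 libraries were Ehd1, Acot9 and Srgn, each with a Pearson r of 0.95. Within tissues (7 libraries each) r was 0.35, -0.12 and 0.91 in spleen and 0.92, 0.94 and 0.69 in tumor. The likeness of the first 2 was thus that of tumor libraries and of the gap between tissues. All 3 genes were highest in WT-labelled tumor replicate 1, the library highest in Il2ra.

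Those most like Il7r were Magi1 (0.91), Mtdh (0.90) and Pcgf2 (0.88), and all 3 were highest in WT-labelled tumor replicate 4. Magi1 stood at 387 CPM there and at 15.8 CPM or less elsewhere, and Pcgf2 at 739 CPM there and at 6.37 CPM or less elsewhere. Without that library r was 0.62, 0.69 and 0.40. These correlations are descriptions over libraries that share tissue and scaling, with no test.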

How the data were processed

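The values the authors deposited are whole read counts, 1 per gene in each of 14 libraries, with no normalization. The build mm10 is named in the submitters' processing notes. Aligner, counting tool, annotation and strand setting were not given in the sources used. Gene numbers were matched to RefSeq symbols (25275 of 27179). The members, the gene lists and the rules were chosen with earlier results of these data known. The rule named all 10 members, up to 3 genes of smallest p per pathway list, and 3 genes most like Il2ra and Il7r. A few listed genes are not reported here.

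Counts were tested on the whole table with edgeR 4.0.16 in R 4.3.3 (quasi-likelihood F test, TMM, filterByExpr by group, Benjamini-Hochberg adjustment, threshold 0.05). The SE of a log2 fold change is its size over the square root of F, and limits at 2 SE are not the limits of that test. Genotype fits used the 7 libraries of a tissue and the other fits all 14. The scripts were tested on simulated data. Library totals from 4859099 to 10333892 counts set the precision. Alternatives were DESeq2 1.42.0, voom with quality weights (limma 3.58.1), RLE size factors, no filter, 5 CPM in 3 libraries, a replicate block, 1 fit of all libraries, each label alone, fits without both WT replicate 2 libraries or any 1 library, and unadjusted totals, added after the data were seen. Levels per kilobase used merged exon lengths from GENCODE M21 (GRCm38). Plots used matplotlib 3.10.9 and Python 3.11.15.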

Additional observations from a re-analysis of the deposited data

Results flagged for a closer look

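In 2 of the 20 gene groups with 4 libraries, 1 library stood apart from the others of its group by the size of its gap over the whole range, a criterion that chance meets in about 1 of 20 groups. Il2rg was 550 CPM in WT-labelled tumor replicate 4, against 149 to 199 CPM in the other WT-labelled tumor libraries. Il7r was 831 CPM in the same library, against 193 to 283 CPM. That library also held the highest summed carcinoma and stromal markers (273 CPM, others of its group 68.3 to 105) and handling genes (3380 CPM), the lowest summed Treg markers of its group (4230 CPM), and 5.28 CPM of B cell markers. Their part in its values was not tested.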

How the results depend on the processing

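The 10 genes gave 0 calls between labels in either tissue and for the difference between tissues under every alternative run. Over the whole table, DESeq2 called 256 genes in tumor, 124 in spleen and 134 for the difference, and voom called 1 in tumor. In spleen the filter of 5 CPM in 3 libraries called 1, the fit of all 14 libraries 4 and the fit without both WT replicate 2 libraries 1. Leaving out 1 library gave 0 to 1 calls in spleen and 0 to 1 for the difference. In tumor against spleen, 3 of the 10 genes were called without a filter, 3 with the replicate block, 1 in WT-labelled libraries, 0 in Flox-labelled ones and 3 to 5 with 1 library left out. Over the whole table the block called 1823 genes, the WT-labelled libraries 750 and the Flox-labelled ones 847, against 2897. Deviations of same-numbered libraries from their group means had correlations from -0.031 to 0.051. With 3 or 4 libraries a group and no comparison with differently numbered ones, these values cannot show whether a number marks the same mouse. The labels do not say what a number shares, so the main fits held no block. With the block, Il2rb (adjusted p = 0.132) and Socs2 (0.101) were not called between tissues (edgeR). Under the replicate block, Il2rg and Il7r turned to 0.03 and 0.15 in tumor, and Il2rg to 0.19 in spleen. Under voom, Jak1 turned to -0.03 in tumor and Socs2 to 0.01 in spleen. Without both WT replicate 2 libraries, Stat5b turned to 0.53 in tumor, and Il2rb to 0.02 and Socs2 to 0.14 in spleen. Without a filter, Il2rg turned to 0.03 in spleen. With 1 library left out, the tumor estimates between labels ranged from -0.90 to 0.14 for Il2rg, -0.75 to 0.16 for Il7r, -0.13 to 0.29 for Jak1, -1.78 to 0.53 for Stat5b and -0.42 to 1.39 for Il15ra. Those in spleen ranged from -0.40 to 0.02 for Il2rb, -0.16 to 0.18 for Il2rg, -0.18 to 0.01 for Jak1 and -0.47 to 0.18 for Socs2. For Il2, tumor against spleen ranged from -0.02 to 1.13. The cause was not tested. Of all estimates of single genes over all alternatives, 1186 kept sign and call, 66 lost the call, 11 gained it and 28 changed sign. Each of the 10 genes had at least 148 counts in every library.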
